A study of Mus musculus with 4 samples.

Results

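The prostaglandin and leukotriene pathway was followed through 10 genes of MC38 tumors, a mouse colon cancer model. The genes were taken by symbol from the 32285 genes of the count matrices: Ptgs1, Ptgs2, Ptges, Hpgd, Ptger2, Ptger4, Alox5, Alox5ap, Tbxas1 and Hpgds. All 10 were found. Tumors grew from parental MC38 cells, with wild-type (WT) RAC1, or from MC38 cells with the A159V substitution of this small GTPase. The substitution had been knocked into the endogenous gene on both alleles by CRISPR-Cas9. The study obtained several edited clones and, unless it says otherwise, used 1 of them. The cells were injected under the skin of young adult C57BL/6 mice, whose own immune system and stroma were intact and unedited. Repeated injections of an antibody that blocks PD1, a brake on T cells, were given to the anti-PD1 mice, and isotype antibody to the IgG mice. Each of the 4 combinations of tumor line and antibody was 1 library of single-cell RNA sequencing (scRNA-seq). CD45+ and CD45- cells had been separated on beads and remixed at a set ratio, so the shares of cell types describe the mixing.

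With 1 library per group no test was possible, and every interval below is an exact 95% interval that covers counting error only. Levels are in CPM, the unique molecular identifiers (UMIs) that all cells of a class gave for a gene per 1000000 UMIs of that class. UMIs tag single molecules at the end of the transcript, with intronic reads counted, and were not divided by gene length, so levels are compared between classes and libraries and not between genes. The libraries held 54402632 to 125227747 UMIs, and 29184 cells were analyzed, 21043 of them in the 5 classes compared here. Where 4 values stand together, those of the WT tumors come first, and IgG stands before anti-PD1 for each tumor line.

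Clusters of cells were given class names from marker genes, with "-like" added since no protein was measured. Macrophage-like, neutrophil-like and fibroblast-like cells had the highest level of every marker of their own list (9 of 9, 8 of 8 and 8 of 8) in each library, and monocyte-like cells of 6 or 7 of 8. Tumor-like cells led for only 5 or 6 of 9 tumor markers. A gate on marker UMIs, used as an alternative to clusters, also took 264 of the 2031 tumor-like cells of WT IgG. It took 1102 of the 2796 tumor-like cells of A159V IgG and 1068 of the 2092 tumor-like cells of A159V anti-PD1. Marker support was thus weaker for tumor-like cells of WT IgG. The tumor-like clusters were led by Prl2c2, Wfdc2 and Rhox5, or by Sema3a and Sox9, and the WT IgG library gave 79.1% of the latter cluster. The WT anti-PD1 library stood apart. By clusters it held 34 tumor-like and 75 monocyte-like cells, against 2031 to 2796 and 1324 to 1641 in the other libraries, and 1598 fibroblast-like cells against 134 to 178. By the gate it held 397 monocyte-like cells, against 1691 to 2404. Of its neutrophil-like cells, 98.8% lay in a cluster (M11) of which this library supplied 97.6%, whereas most of those of the other libraries lay in M13. It also supplied 84.7%, 70.1% and 86.5% of the macrophage-like clusters M07, M08 and M12. Any class value of WT anti-PD1 therefore mixes treatment, cell state and library, which cannot be told apart. Libraries shared 13 to 22 cell barcodes per pair.

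Prostaglandins and thromboxane are made from arachidonic acid, which phospholipases release from membranes. The cyclooxygenases Ptgs1 (COX-1) and Ptgs2 (COX-2) turn it into prostaglandin H2, and a terminal synthase then decides the product: Ptges makes prostaglandin E2, Tbxas1 thromboxane A2 and Hpgds prostaglandin D2. Prostaglandin E2 acts through receptors such as Ptger2 (EP2) and Ptger4 (EP4), which raise cyclic AMP and are known to restrain T cells, NK cells and macrophages in tumors, and it is broken down by Hpgd. Leukotrienes start from the same acid with Alox5 (5-lipoxygenase), which needs its partner protein Alox5ap (FLAP).

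The inducible cyclooxygenase Ptgs2 (ENSMUSG00000032487, GRCm38 chromosome 1, 150100031 to 150108227, plus strand) gave 61128 UMIs of the 118370 that all 10 genes gave in analyzed cells. The bases around its start site are shown because Ptgs2 gave the most UMIs of the 10 genes. The window runs from 250 bases before to 50 after the RefSeq start (GRCm38.p6, chr1:150099781-150100080, plus strand). Motifs were searched on both strands, and capitals mark the matches. The core of the cyclic AMP response element was searched as TGACG, the C/EBP site as TTGCNNAA and the E box as CACGTG. The GC box was searched as GGGCGG and the PU.1 site as GAGGAA. The matches of the response element core and the E box overlap.
Ptgs2 promoter: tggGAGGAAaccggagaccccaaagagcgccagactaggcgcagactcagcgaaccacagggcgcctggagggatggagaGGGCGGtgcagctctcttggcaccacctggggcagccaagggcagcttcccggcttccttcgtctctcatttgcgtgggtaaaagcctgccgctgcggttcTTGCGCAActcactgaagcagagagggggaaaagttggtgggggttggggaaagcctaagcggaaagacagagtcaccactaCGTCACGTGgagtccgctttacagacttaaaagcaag
Among 32851 promoters of the same length, 20.8% held the response element core, 10.8% the C/EBP letters, 7.15% the E box, 35.7% the GC box and 28.3% the PU.1 letters. The AP-1 site, searched as TGANTCA, stands in 7.81% of promoters and had no match in this window. The same holds for the TATA box, searched as TATAAA (13.6%), and the Egr site, searched as GCGGGNGCG (5.8%).

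Neutrophil-like cells held the highest Ptgs2 level in every library. It was 4838 CPM (4496 to 5200) and 4858 CPM (4720 to 4999) in the IgG and anti-PD1 libraries of WT tumors, and 3081 CPM (2833 to 3345) and 3511 CPM (3316 to 3714) in those of A159V tumors. The ranges of neutrophil-like cells and of every other class did not overlap. Macrophage-like cells followed with 665.5, 761.5, 757.7 and 1274 CPM. Classical monocyte-like cells had 569.6, 836, 683 and 1058 CPM, and the ranges of these neighbors in the order overlapped. The A159V anti-PD1 library was the highest in both. Fibroblast-like cells, with 134, 49.0, 129 and 43.0 CPM, and tumor-like cells, with 79.4, 73.0 and 82.8 CPM in the libraries other than WT anti-PD1, lay far below. T-like cells, which are not known for COX-2, had 7.3 to 19.6 CPM.

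**Figure D1:**
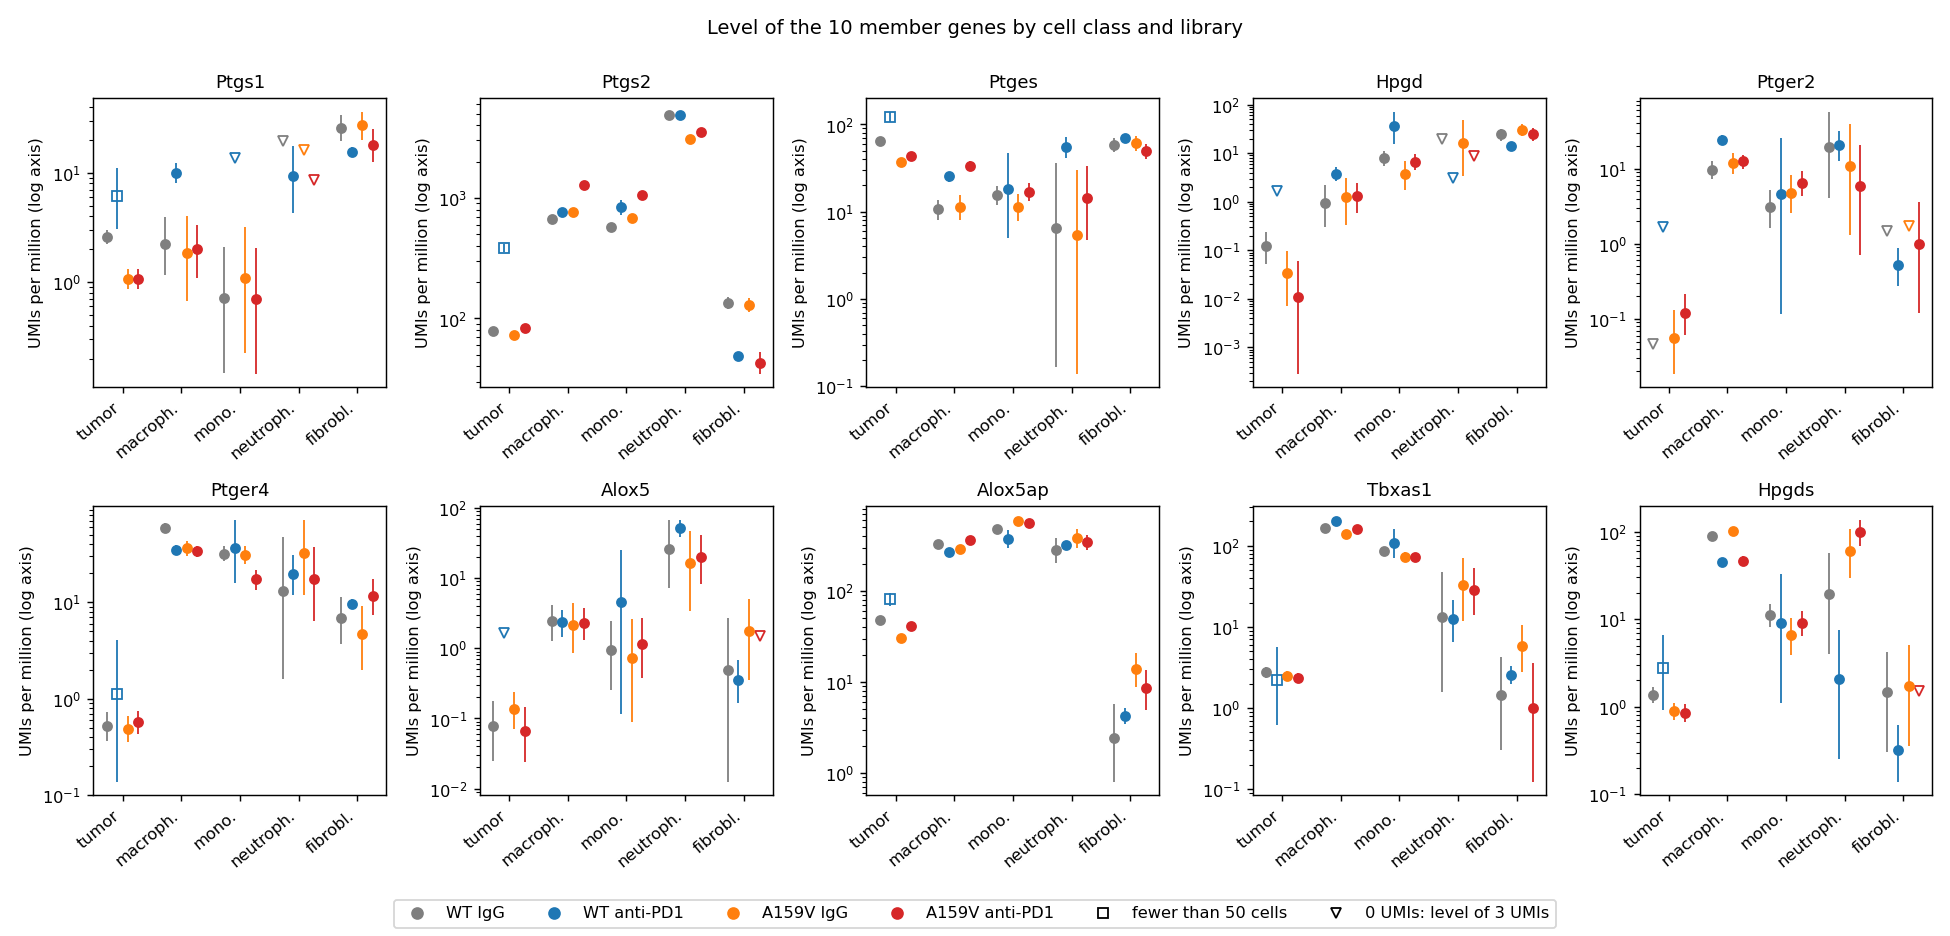
Level of each of the 10 genes (CPM, log axis) in tumor-like, macrophage-like, classical monocyte-like, neutrophil-like and fibroblast-like cells, with 1 point per library and exact 95% intervals for counting error. Open squares stand for classes of fewer than 50 cells and open triangles for 0 UMIs, drawn at the level of 3 UMIs. Ptgs2 is highest in neutrophil-like cells (3081 to 4858 CPM), and Ptges and Ptgs1 are high in fibroblast-like cells.

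Shares of cells with a UMI were also compared at equal depth. Each cell was thinned to 1500 UMIs and shallower cells were left out, which removed 56 of 95, 270 of 565, 55 of 105 and 141 of 223 neutrophil-like cells but only 9 to 20 tumor-like cells in each of the 3 libraries with many. At this depth 89.7%, 92.9%, 90.0% and 74.4% of neutrophil-like cells had a Ptgs2 UMI. Among macrophage-like cells the share was 37.1% (34.4 to 39.9), 39.1% (36.6 to 41.6), 43.8% (40.7 to 46.9) and 53.4% (51.0 to 55.8). In tumor-like cells of the libraries other than WT anti-PD1 it was 9.81%, 9.19% and 11.6%. Without thinning these tumor-like shares read 51.9%, 64.7% and 75.5%, at medians of 29657 to 42323 UMIs per cell, against 2163 to 3715 UMIs in macrophage-like cells. T-like cells (medians, 1659 to 3075 UMIs) gave 0.93% to 2.27% at equal depth.

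Stray myeloid RNA was measured beside the Ptgs2 of tumor-like cells. Tyrobp, an adaptor of myeloid and NK cells, was at 2.92 to 6.04 CPM there and at 669 to 1009 CPM in macrophage-like cells. For each Tyrobp UMI, tumor-like cells had 13.1, 25.0 and 23.1 Ptgs2 UMIs in WT IgG, A159V IgG and A159V anti-PD1, and macrophage-like cells had 0.66 to 1.31 in the 4 libraries. Neutrophil-like cells, the class with the highest Ptgs2 level, are not part of this comparison. The part of stray RNA was not tested. The tumor-like signal was uneven among cells: the top 5% of cells held 44.4%, 28.7% and 29.3% of its Ptgs2 UMIs. Other classes were uneven too. The top 5% held 30.9% to 42.9% in macrophage-like, 48.6% to 64.4% in fibroblast-like and 18.7% to 22.7% in neutrophil-like cells.

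Ptgs1 (ENSMUSG00000047250, chromosome 2, 36230426 to 36252272, plus strand), the constitutive cyclooxygenase, followed another order. Fibroblast-like cells led the 5 classes with 25.8, 15.6, 27.2 and 18.0 CPM, and no other of the 5 classes reached this range. The ratio of Ptgs2 to Ptgs1 UMIs was 2.39 to 5.21 in fibroblast-like cells, 30.6 to 76.9 in tumor-like cells and 76.1 to 635 in macrophage-like cells. Neutrophil-like cells had 9 Ptgs1 UMIs in WT anti-PD1 and 0 in the other libraries, which allows up to 19.6, 16.2 and 8.68 CPM. Outside the 5 classes, endothelial-like cells, nearly all of them from WT anti-PD1, had 46.5 CPM (37.3 to 57.3) from 88 UMIs.

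The terminal synthases were split between classes. Ptges (ENSMUSG00000050737, chromosome 2, 30889471 to 30929863, minus strand) was highest by mean over libraries in fibroblast-like cells, at 57.9, 70.9, 60.9 and 49.5 CPM. Tumor-like cells had 64.3, 37.2 and 43.9 CPM in WT IgG, A159V IgG and A159V anti-PD1, the first of them above the fibroblast-like level of its library. Myeloid classes had less, with 10.6, 25.4, 11.4 and 33.8 CPM in macrophage-like cells and 11.4 to 18.3 CPM in monocyte-like cells. Among neutrophil-like cells WT anti-PD1 alone stood out, with 55.0 CPM (41.2 to 72.0) from 53 UMIs, against 1, 1 and 5 UMIs in the other libraries. Its promoter is shown for comparison with that of Ptgs2, since each gene had its highest macrophage-like level in A159V anti-PD1 (GRCm38.p6, chr2:30903248-30903547, minus strand, around the RefSeq start, which lies inside the GENCODE gene).
Ptges promoter: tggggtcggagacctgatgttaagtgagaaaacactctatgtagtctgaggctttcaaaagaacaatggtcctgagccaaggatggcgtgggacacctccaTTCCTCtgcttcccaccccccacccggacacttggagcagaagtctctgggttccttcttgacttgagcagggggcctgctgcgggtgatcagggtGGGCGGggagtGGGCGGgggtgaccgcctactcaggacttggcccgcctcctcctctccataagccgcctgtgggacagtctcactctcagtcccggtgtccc
This window held the GC box letters at 2 places and those of PU.1 at 1, and none of the other motifs.

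Tbxas1 (ENSMUSG00000029925, chromosome 6, 38875404 to 39084585, plus strand), thromboxane synthase, was highest by mean over libraries in macrophage-like cells. Its level there was 166, 202, 139 and 163 CPM. Monocyte-like cells had 86.1, 110 (109.7), 73.1 and 73.5 CPM, below macrophage-like cells of the same library in each case. Neutrophil-like cells reached 12.5 to 32.5 CPM and tumor-like and fibroblast-like cells at most 5.8 CPM. Among the other classes dendritic-like cells had 59.6 to 139 CPM, which just overlapped the macrophage-like range (138.5 against 139.4 CPM). Their clusters differed, at 252 CPM over all libraries in M16 (Xcr1 and Clec9a among its leading genes), 106 CPM in M06 and 5.10 CPM in M14.

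Hpgds (ENSMUSG00000029919, chromosome 6, 65117293 to 65144908, minus strand), the hematopoietic prostaglandin D synthase, was highest by mean over libraries in macrophage-like cells. Its level was 88.4, 44.5, 101 and 46.7 CPM, with the anti-PD1 libraries lower on both genotypes. Neutrophil-like cells had 19.6, 2.08, 59.6 and 98.3 CPM, values that rested on 3, 2, 11 and 34 UMIs, and the last of them was above the macrophage-like level of its library. In the A159V anti-PD1 library 11 of 223 neutrophil-like cells held 88.2% of these UMIs. The macrophage marker list summed to 434 CPM in those neutrophil-like cells and to 6806 CPM in macrophage-like cells of that library, and all 7 genes of the mast cell or basophil list were at 0. The part of stray RNA was not tested. Its promoter is shown because Hpgds was lower where Ptges was higher after anti-PD1 (GRCm38.p6, chr6:65144681-65144980, minus strand).
Hpgds promoter: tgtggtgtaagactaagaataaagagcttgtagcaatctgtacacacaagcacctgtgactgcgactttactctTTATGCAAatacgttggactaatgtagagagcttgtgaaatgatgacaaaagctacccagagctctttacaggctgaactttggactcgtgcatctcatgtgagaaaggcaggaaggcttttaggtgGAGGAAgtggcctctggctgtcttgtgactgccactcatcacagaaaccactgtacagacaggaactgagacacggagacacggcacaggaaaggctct
The C/EBP and PU.1 letters each matched once, and no other motif matched. RefSeq promoters were found for 9 of the 10 genes, Alox5ap being the one without an entry.

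**Figure D2:**
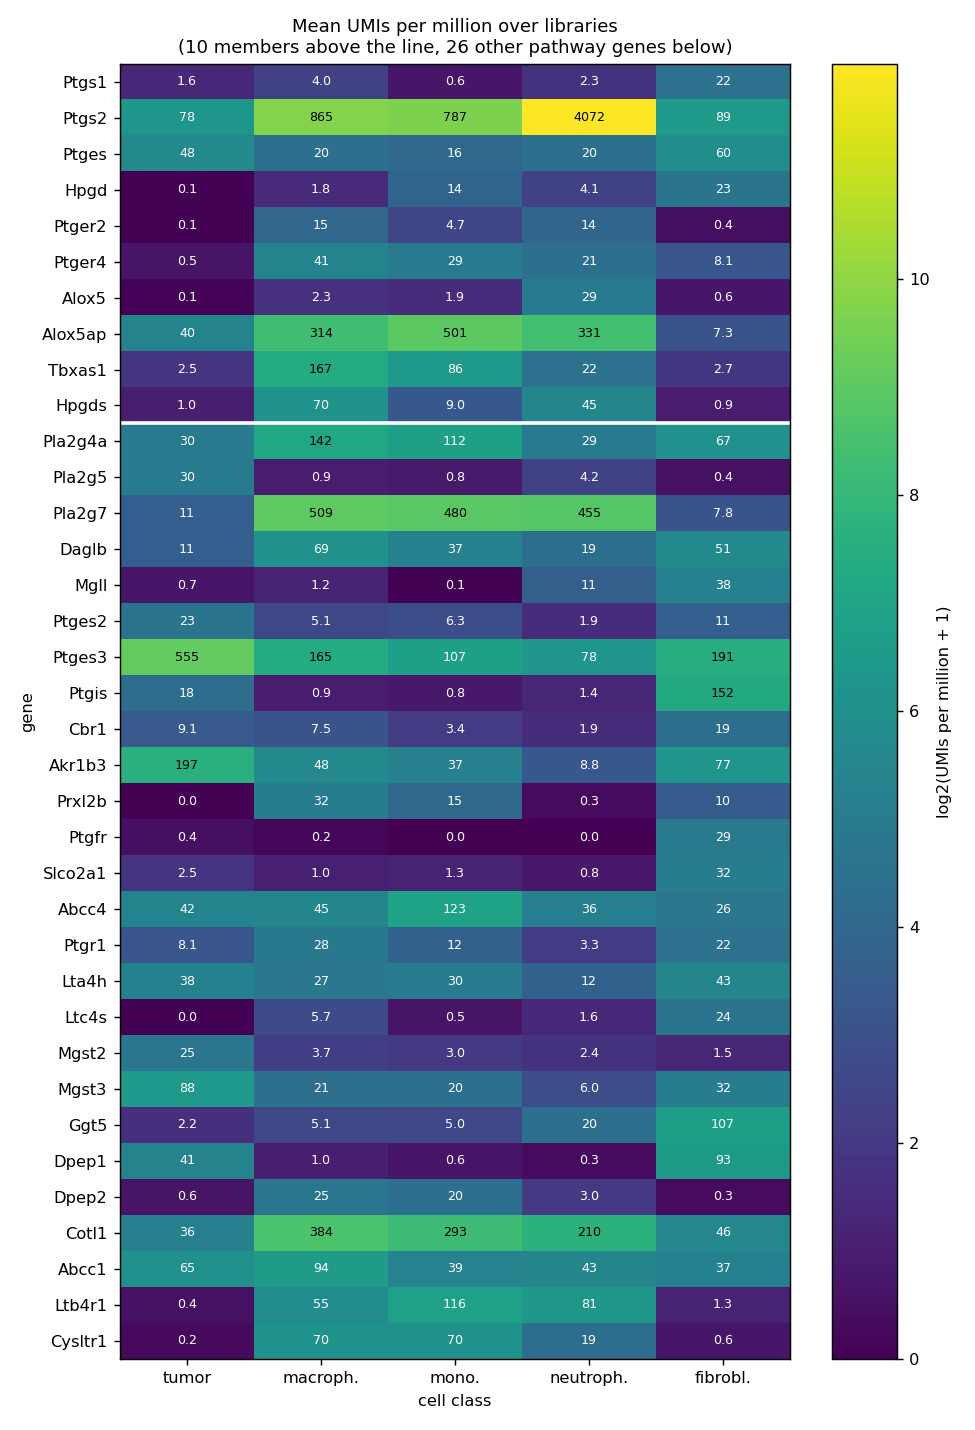
Mean level over libraries (CPM, printed in each cell; color on a log2 scale) of the 10 members and of the 26 other pathway genes that reached 20 CPM, in the 5 classes. Ptgis and Slco2a1 are high in fibroblast-like cells, Ptges3 in tumor-like cells, and Ltb4r1 and Cysltr1 in monocyte-like cells.

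Ptger4 and Ptger2 are the receptors for prostaglandin E2 among the 10 genes. Ptger4 (ENSMUSG00000039942, chromosome 15, 5206661 to 5244187, minus strand) had 59.5, 35.2, 36.2 and 34.0 CPM in macrophage-like cells, 17.2 to 36.6 CPM in monocyte-like cells and 0.48 to 0.57 CPM in tumor-like cells. Fibroblast-like cells had 4.64 to 11.5 CPM of it, which overlapped the 5.24 to 28.2 CPM of NK-like cells. Over all classes dendritic-like cells led without overlap, at 119, 132 (131.5), 107 and 97.7 CPM. The dendritic-like cluster led by Ccr7 and Ccl22, genes of mature dendritic cells, had 227, 263, 215 and 190 (190.4) CPM. Ptger2 (ENSMUSG00000037759, chromosome 14, 44988195 to 45003820, plus strand) had 9.69, 24.3, 12.0 and 12.5 CPM in macrophage-like cells and 11.5 to 19.3 CPM in T-like cells. These ranges overlapped. Tumor-like cells had at most 0.12 CPM of Ptger2, and in fibroblast-like cells 0 UMIs in WT IgG and A159V IgG allow up to 1.46 and 1.74 CPM.

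Hpgd (ENSMUSG00000031613, chromosome 8, 56294585 to 56321043, plus strand), which inactivates prostaglandin E2, led among the 5 classes in fibroblast-like cells at 24.3, 14.0, 30.7 and 24.5 CPM. Monocyte-like cells overlapped this range only through WT anti-PD1, whose 36.6 CPM came from 8 UMIs in 75 cells, and the other libraries had 3.67 to 7.82 CPM. Of all classes the highest was nonclassical monocyte-like, the patrolling Ly6c-low type, with 88.7 CPM in WT IgG, 44.1 CPM in A159V IgG and 86.2 CPM in A159V anti-PD1. Tumor-like cells had at most 0.12 CPM, from 8 UMIs.

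The leukotriene pair followed different orders of classes. Alox5ap (ENSMUSG00000060063, chromosome 5, 149264767 to 149288153, plus strand) was high in all myeloid classes, at 375 to 582 CPM in monocyte-like, 282 to 379 CPM in neutrophil-like and 268 to 368 CPM in macrophage-like cells. Alox5 itself (ENSMUSG00000025701, chromosome 6, 116410077 to 116461178, minus strand), the enzyme, gave 349 UMIs in all analyzed cells against 27528 of Alox5ap. It reached 26.2, 51.9, 16.2 and 20.2 CPM in neutrophil-like cells, from 4, 50, 3 and 7 UMIs, and 2.15 to 2.42 CPM in macrophage-like cells. For each Alox5 UMI there were 6.18 to 23.3 Alox5ap UMIs in neutrophil-like cells, 115 to 161 in macrophage-like cells and 82.0 to 792 in monocyte-like cells. The monocyte-like ratios rested on only 4, 1, 2 and 5 Alox5 UMIs, and the macrophage-like ratios on 13, 21, 7 and 16. NK-like cells came next for Alox5, with 10.5, 5.86, 37.6 and 19.3 CPM, overlapping neutrophil-like cells.

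Alox5ap was also present in tumor-like cells, at 48.0 CPM in WT IgG, 30.6 CPM in A159V IgG and 40.8 CPM in A159V anti-PD1. Fibroblast-like cells had 2.43, 4.25, 13.9 and 8.51 CPM. For each Tyrobp UMI, tumor-like cells held 7.95, 10.5 and 11.4 Alox5ap UMIs, against 0.31 to 0.40 in macrophage-like cells. The part of stray RNA was not tested here either. At equal depth 4.66% to 6.34% of tumor-like cells in these 3 libraries had an Alox5ap UMI, and T-like cells 0.51% to 1.79%. The 5-lipoxygenase itself was at 0.066 to 0.14 CPM in the tumor-like cells.

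**Figure D3:**
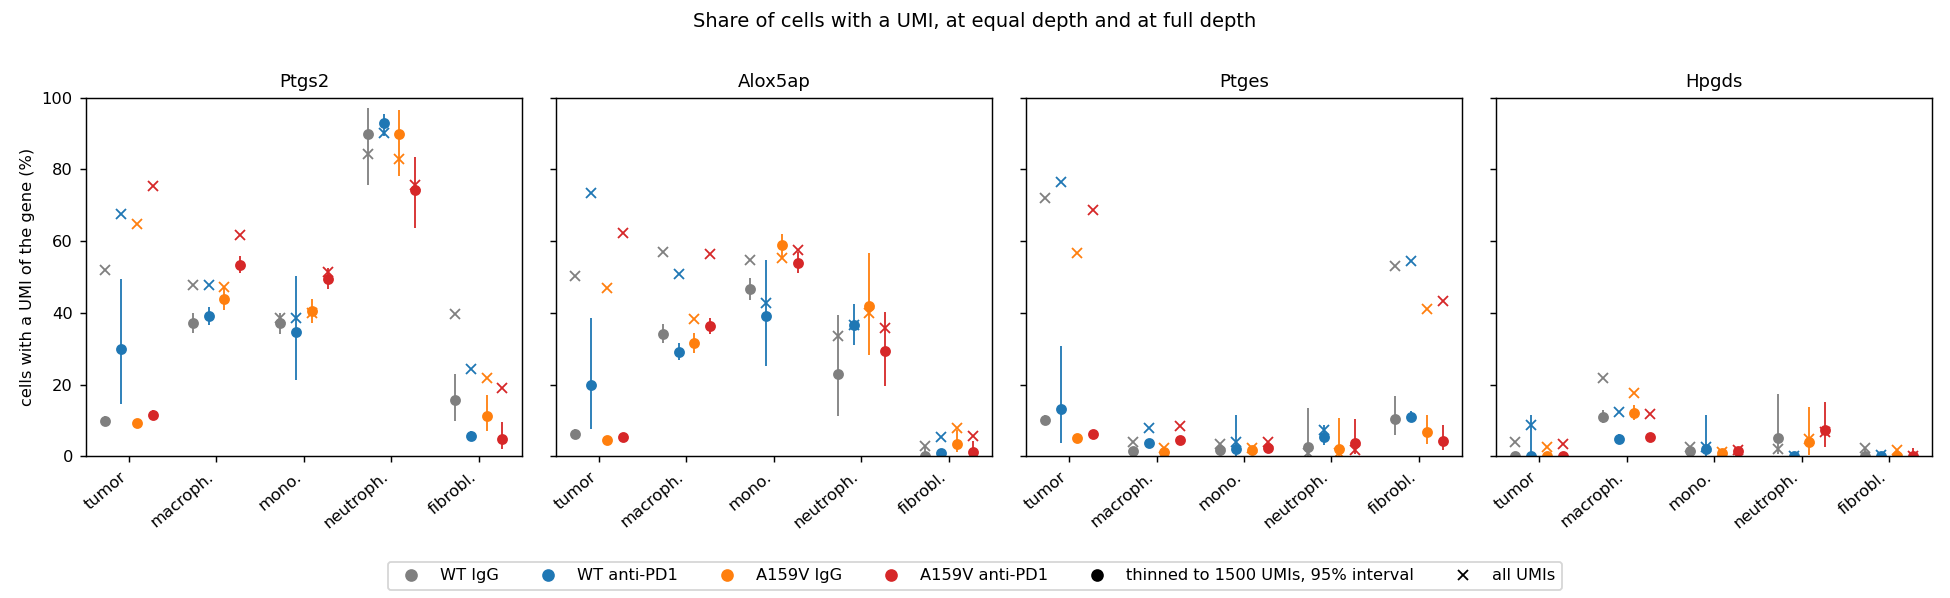
Share of cells with a UMI of Ptgs2, Alox5ap, Ptges or Hpgds (percent) in the 5 classes, 1 point per library. Filled points are cells thinned to 1500 UMIs, with exact 95% intervals, and crosses are the same classes at full depth. Tumor-like and fibroblast-like shares drop at equal depth. Neutrophil-like cells are near this depth before thinning (medians, 1330 to 1525 UMIs). Their 74.4% to 92.9% with Ptgs2 therefore had little room for such a drop.

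Among the 47 other pathway genes found in the files, 26 reached 20 CPM in 1 of the 5 classes and 21 did not. By mean level, 9 of the 26 were highest in fibroblast-like cells, 8 in macrophage-like, 6 in tumor-like, 3 in monocyte-like and 0 in neutrophil-like cells. For arachidonate release, cytosolic phospholipase Pla2g4a was highest in macrophage-like cells (109 to 198 CPM) and the secreted Pla2g5 in tumor-like cells (20.4 to 35.5 CPM). The range of Pla2g4a was overlapped by another class, which reached 156.9 CPM. Prostacyclin synthase Ptgis (134 to 162 CPM), the uptake transporter Slco2a1 (20.8 to 42.0 CPM) and the receptor for prostaglandin F2α, Ptgfr (19.0 to 50.5 CPM), were highest in fibroblast-like cells. The cytosolic synthase Ptges3, a chaperone partner, was highest in tumor-like cells (487 to 599 CPM). Of the leukotriene genes, Ltb4r1 and Cysltr1, receptors for leukotriene B4 and cysteinyl leukotrienes, were highest in monocyte-like cells (79.0 to 165 CPM and 45.7 to 89.3 CPM). Both ranges were overlapped by another class, at up to 149.5 and 83.5 CPM. The leukotriene C4 synthase Ltc4s was highest in fibroblast-like cells (12.2 to 53.8 CPM).

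Macrophage-like clusters spanned a wide range of Ptgs2, from 35.9 CPM in M15 to 1715 CPM in M01 over all libraries, against 665.5 to 1274 CPM for the class in single libraries. Clustering had used none of the 10 genes or the other pathway genes. Cluster M01, macrophage-like and led by Mmp13, Gpnmb and Inhba, had 1342, 1594, 1174 and 2154 CPM of Ptgs2. Cluster M07, with Slc16a10 and Arg1 among its leading genes, had 1512 CPM in WT anti-PD1 and 1179 CPM in A159V anti-PD1. By contrast M08, led by Ccl8 and Mrc1, had 212 and 236 CPM in those libraries, and M15, led by Negr1, Cadm1 and C1q genes, had 30.9 CPM in WT IgG and 43.2 CPM in A159V anti-PD1. Ptges was highest in the same clusters, with 45.4 and 65.9 CPM over all libraries in M01 and M07 and 4.34 to 11.9 CPM in the other 5 macrophage-like clusters.

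Hpgds was highest in other clusters. Over all libraries it had 154 CPM in M15, 116 CPM in M00 (led by Ccl12, Ms4a7 and C1q genes) and 94.9 CPM in M08, against 43.8 CPM in M01 and 16.1 to 22.0 CPM in M04, M07 and M12. In the libraries with 50 cells in both, M08 had 100.3 and 86.6 CPM and M00 had 92.5 and 78.1 CPM. Tbxas1 was at 269 CPM in M08 and 107 CPM in M01 over all libraries. At the level of single cells, macrophage-like cells with an Hpgds UMI had a Ptgs2 UMI less frequently than those without, at equal depth, in all 4 libraries: 25.0% against 38.6%, 19.2% against 40.1%, 24.4% against 46.4% and 36.6% against 54.4%. Cells with a Ptges UMI had Ptgs2 more frequently in all 4, at 57.9% against 36.8%, 72.7% against 37.8%, 53.8% against 43.7% and 69.6% against 52.6%. The Ptges-positive cells numbered 19, 55, 13 and 79, and in the IgG libraries the intervals (33.5 to 79.7 and 25.1 to 80.8) included the share of the other cells.

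**Figure D4:**
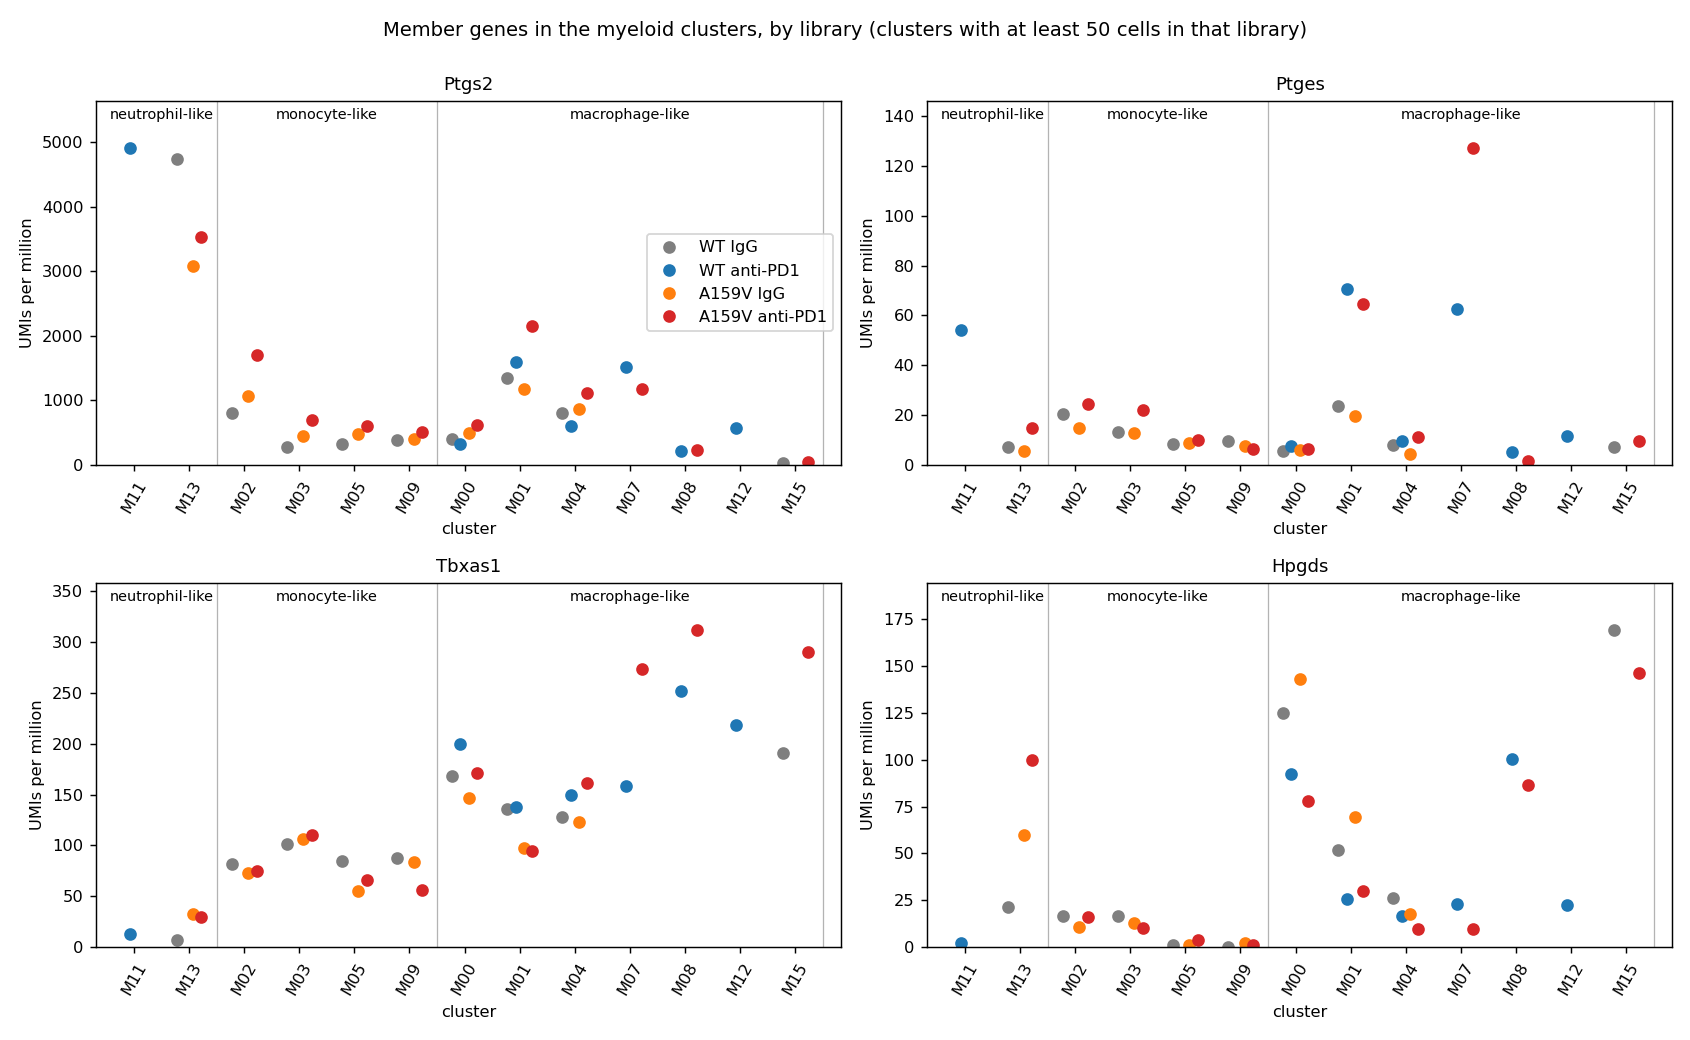
Ptgs2, Ptges, Tbxas1 and Hpgds (CPM, linear axes from 0) in the neutrophil-like, monocyte-like and macrophage-like clusters, 1 point per library with at least 50 cells in the cluster. Ptgs2 and Ptges share their highest macrophage-like clusters, M01 and M07, while Hpgds is highest in M15, M00 and M08.

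To ask how far the A159V line changed the pathway, A159V IgG was set against WT IgG. A difference was called when it reached 2-fold on the log2(CPM + 1) scale in a gene with at least 20 UMIs in the 2 libraries together. Of 31 pairs of member and class tested, 1 was called. In macrophage-like, monocyte-like, neutrophil-like and tumor-like cells 0 of 8, 0 of 8, 0 of 2 and 0 of 7 members were called, where 2.74%, 3.26%, 15.7% and 5.63% of all genes tested were. In fibroblast-like cells 1 of 6 was called, against 3.94% of all genes. This was Alox5ap, at 13.9 CPM against 2.43 CPM (24 and 5 UMIs, fold 5.72, interval 2.14 to 19.2). Tyrobp stood at 29.6 and 11.2 CPM in the same fibroblast-like cells, and its part in the result was not tested. With fibroblast-like cells chosen by a gate on marker UMIs, the direction turned (log2 ratio -1.41). Ptgs2 in neutrophil-like cells was lower in A159V IgG by less than 2-fold (fold 0.637, 0.570 to 0.711). In tumor-like cells its fold was 0.92 (0.887 to 0.954), with 1.44 and 1.48 within clusters A00 and A02 and 0.871 within A08.

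Ptges and Alox5ap in tumor-like cells differed by less than 2-fold, with narrow intervals. Ptges was lower in A159V IgG (fold 0.578, 0.552 to 0.605), and so it was within each of the 3 tumor-like clusters, at 0.599 to 0.864. Alox5ap was lower in the class as a whole (fold 0.638, 0.606 to 0.672) but not lower within any of these clusters, where the folds were 1.01 to 1.47. The WT IgG tumor-like cells were mostly (1279 of 2031) in cluster A08, which had 65.0 CPM of Alox5ap over all libraries. The A159V IgG cells were mostly (1473 of 2796) in A02, which had 25.1 CPM. In macrophage-like cells Ptger4 was lower in A159V IgG (fold 0.609, 0.489 to 0.755) and in each of 3 clusters.

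For the response to anti-PD1 in WT tumors, 7 of 30 pairs were called, 6 of them higher and 1 lower, in a comparison where many genes moved. In macrophage-like cells 4 of 10 members were called, all higher, against 13.3% of all genes tested. These were Ptgs1 (10.0 against 2.24 CPM, fold 4.48, 2.44 to 8.98), Ptges (fold 2.39, 1.78 to 3.25), Ptger2 (24.3 against 9.69 CPM) and Hpgd (34 against 5 UMIs). Ptgs1 was at 16.3 CPM in M08 and 16.5 CPM in M12 of WT anti-PD1 and at most 3.7 CPM in its other macrophage-like clusters of at least 50 cells. Ptger2 was highest in M12 (40.5 CPM). Of the 34 Hpgd UMIs of WT anti-PD1, 29 lay in M08 and 4 in M04. WT IgG had 27 cells in M08 and 28 in M12. Of the 228 Ptges UMIs of WT anti-PD1, 151 lay in M07 (62.4 CPM), where WT IgG had 43 cells. In M04 Ptges was at 9.68 CPM in WT anti-PD1 and 7.93 CPM in WT IgG, from 7 UMIs in each. Without the clusters drawn mainly from 1 library, the log2 ratio of Ptger2 went from 1.24 to 0.56 and that of Ptges from 1.18 to 0.996. Cluster M01 held 328 cells of WT IgG and 68 of WT anti-PD1, which were 3.66% of the macrophage-like cells of the latter. Within M01 the fold of Ptges was 2.99 (1.64 to 5.36, 22 against 30 UMIs). That of Ptger2 was 1.17 (0.459 to 2.62). With a pseudocount of 5 CPM the calls of Ptges, Ptger2 and Hpgd were lost, at log2 ratios of 0.96, 0.99 and 0.57.

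The fibroblast marker list, which stands for stray stromal RNA, summed to 722 CPM in macrophage-like cells of WT anti-PD1 and 53.5 CPM in those of WT IgG. That is 0.835% of its level in fibroblast-like cells of WT anti-PD1, where Ptgs1 was at 15.6 CPM and Ptges at 70.9 CPM. Hpgds was lower, at 44.5 against 88.4 CPM (fold 0.504, 0.440 to 0.576), just short of the threshold at a log2 ratio of -0.97. The fold of Ptgs2 was 1.14 (1.10 to 1.19) in the class, and 0.788 within M00, 0.749 within M04 and 1.19 within M01.

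In the other classes of WT anti-PD1, 1 of 7 members was called in monocyte-like cells (25.1% of all genes), namely Hpgd from 8 UMIs (lost at a log2 ratio of 0.27 under the gate), and 1 of 6 in neutrophil-like cells (30.5% of all genes), namely Ptges at 55.0 against 6.55 CPM, with 1 UMI in WT IgG. The neutrophil-like value compares cluster M11 with M13. In fibroblast-like cells 1 of 7 was called (12.4% of all genes). This was Ptgs2, which was lower at 49.0 against 134 CPM (fold 0.365, 0.320 to 0.417), and lower in both fibroblast-like clusters, at 0.437 and 0.318. Tumor-like cells were too few for the comparison.

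The same comparison in A159V tumors called 4 of 33 pairs, 2 higher and 2 lower. In macrophage-like cells 2 of 9 members were called, against 2.88% of all genes tested. Ptges was higher, at 33.8 against 11.4 CPM (fold 2.98, 2.10 to 4.33), with a fold of 3.28 (2.15 to 5.21) within M01. Cluster M01 gave 176 of the 236 Ptges UMIs of A159V anti-PD1. In M00 Ptges was at 6.45 against 6.05 CPM, from 9 UMIs in each library. In M04 it was at 11.2 against 4.38 CPM, from 17 UMIs against 1. Hpgds was lower, at 46.7 against 101 CPM (fold 0.462, 0.395 to 0.540), and was lower within M00 (fold 0.545) and M01 (fold 0.435). The share of cells with an Hpgds UMI at equal depth was 5.38% (4.36 to 6.54) against 12.0% (10.1 to 14.2), and in WT tumors the anti-PD1 share was 4.96% (3.90 to 6.19), also below that of IgG (9.29 to 12.9). Leaving out the clusters drawn mainly from 1 library kept both calls, at log2 ratios of 1.45 and -1.21. With cells of more than 1000 genes both ratios kept their direction but missed 2-fold (0.68 for Ptges and -0.92 for Hpgds), and so they did with macrophage-like cells chosen by a gate on marker UMIs (0.66 and -0.78).

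In macrophage-like and monocyte-like cells Ptgs2 stayed under 2-fold and was higher within each cluster measured. The fold of A159V anti-PD1 over A159V IgG was 1.68 (1.61 to 1.76) in macrophage-like cells and 1.55 (1.47 to 1.64) in monocyte-like cells. Within clusters it ran from 1.25 to 1.83 over 3 macrophage-like clusters and from 1.27 to 1.58 over 4 monocyte-like clusters. In dendritic-like cluster M06 Ptgs2 was at 77.8 CPM in A159V IgG and 285 CPM in A159V anti-PD1, and in M14 at 63.8 and 290.4 CPM. The anti-PD1 library was also the higher in WT tumors, at 107.5 and 203.0 CPM in M06 and 74.5 and 204.0 CPM in M14. The neutrophil marker list, from the class with the most Ptgs2, summed to 96.7 CPM in macrophage-like cells of A159V anti-PD1 and 86.6 CPM in those of A159V IgG.

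In fibroblast-like cells of A159V tumors 2 of 6 members were called (6.49% of all genes). Ptgs2 was lower, at 43.0 against 129 CPM (fold 0.334, 0.258 to 0.431). The call was lost with predicted doublets kept, at a log2 ratio of -0.88. Cluster A10, led by Clec3b and Pi16, was the one with at least 50 cells in both libraries, and its fold was 1.57 (0.967 to 2.63). Cluster A13, led by Tnc and Col12a1, had 211 CPM and 77 of 178 cells in A159V IgG. In A159V anti-PD1 its 32 cells of 162 had 33.0 CPM (18.5 to 54.5) from 15 UMIs. Ptger4 was higher, from 23 against 8 UMIs (fold 2.48, 1.07 to 6.42), a call lost at a pseudocount of 5 CPM (0.78). In monocyte-like, neutrophil-like and tumor-like cells 0 of 8, 0 of 3 and 0 of 7 members were called, where 1.97%, 12.4% and 0.141% of all genes were. Ptger4 in monocyte-like cells was lower by less than 2-fold (fold 0.557, 0.402 to 0.771) and in each of 4 clusters.

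**Figure D5:**
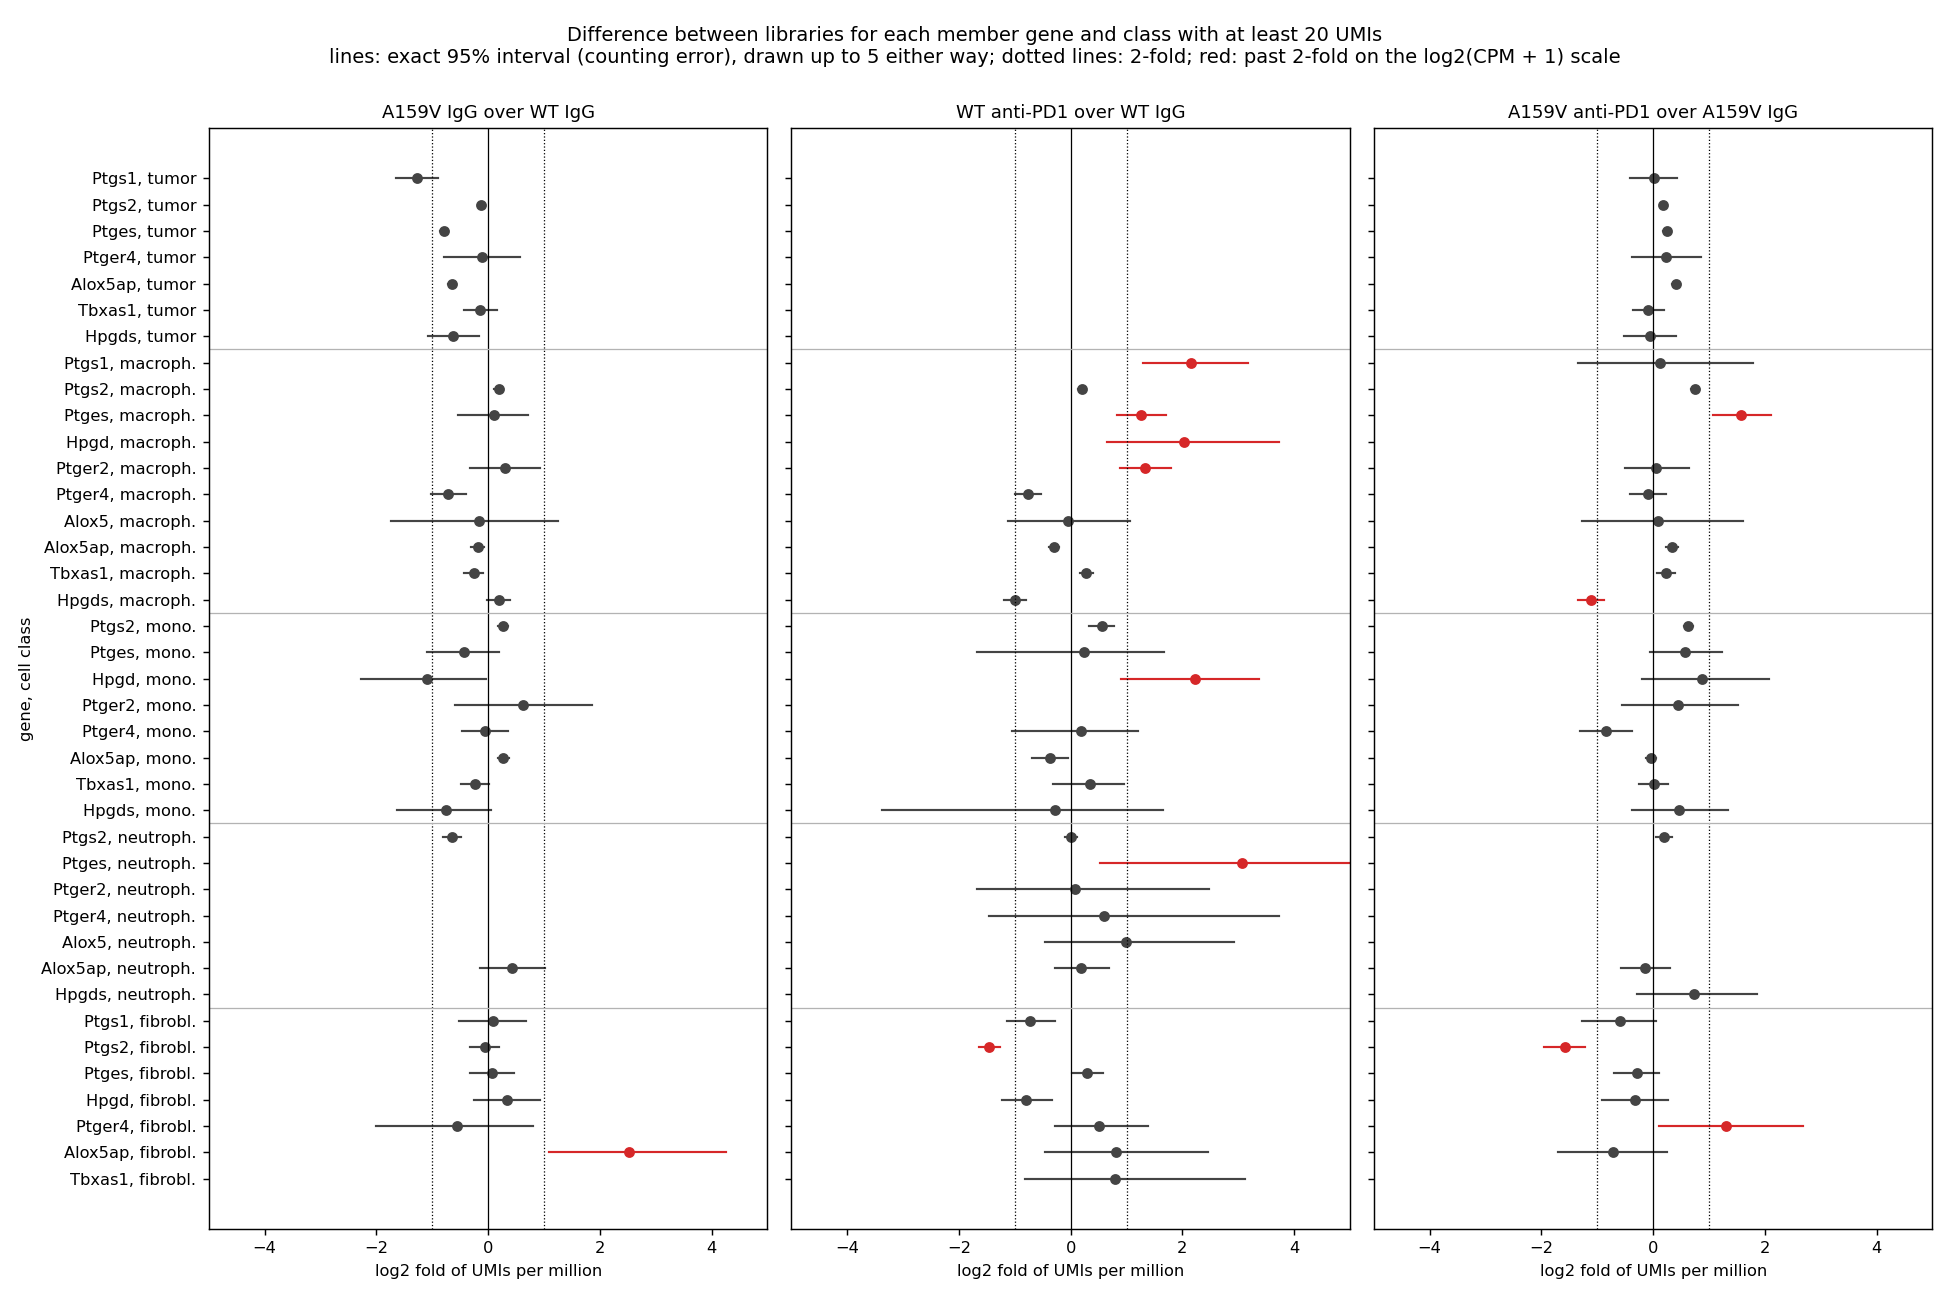
Log2 fold of CPM for each member and class with at least 20 UMIs, in the 3 comparisons, with exact 95% intervals for counting error. Dotted lines mark 2-fold, red points passed it on the log2(CPM + 1) scale, and lines end at 5 either way. Ptgs1 in tumor-like cells (fold 0.413) and Hpgd in monocyte-like cells (fold 0.470) of A159V IgG over WT IgG passed it only as plain ratios. The count of red points is 1, 7 and 4, and Ptges in macrophage-like cells is red in both anti-PD1 comparisons.

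Both anti-PD1 comparisons have their own IgG library, and the genotype comparison shares each of those libraries, so the 3 sets of values are not independent. The median log2 ratio over all genes tested lay between -0.05 and 0.04 in macrophage-like and tumor-like cells and reached 0.14 in neutrophil-like cells of A159V IgG and in the monocyte-like, neutrophil-like and fibroblast-like cells of WT anti-PD1. Over the other pathway genes, 0 of 23 were called in macrophage-like cells between A159V IgG and WT IgG, 4 of 27 between WT anti-PD1 and WT IgG and 2 of 23 between A159V anti-PD1 and A159V IgG, where 2.74%, 13.3% and 2.88% of all genes were. The first of these anti-PD1 comparisons called Mgll, Ptgir and Ggt5 higher and Dpep2 lower, and the second called the prostaglandin exporter Abcc4 and the reductase Ptgr1 higher. In tumor-like cells 7 of 37 were called between the IgG libraries, against 5.63% of all genes. Ptgis, Mgst2 and Pla2g2e were higher and Pla2g7, Ptgds, Ggt5 and Dpep1 lower in A159V IgG. By mean level, Ptgis, Ggt5 and Dpep1 were highest in fibroblast-like cells and Pla2g7 in macrophage-like cells. Pla2g2e and Ptgds did not reach 20 CPM in any of the 5 classes. Cluster A08 held 63.0% of the tumor-like cells of WT IgG and 6.97% of those of A159V IgG. The parts of stray RNA and of cluster make-up in these calls were not tested.

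By likeness of pattern over 36 profiles of class and library, Ptgs2 was nearest to Cd14 (Pearson r = 0.94), Slc7a11 and Atp6v0c among 13680 genes. Tbxas1 was nearest to Aif1 (r = 0.96), Clec4a1 and Cd68, and Ptges to Cxcl1 (r = 0.86), Mgst1 and Fam102b. For Ptger2 the nearest was Atp8b4 (r = 0.88), for Ptger4 Fam49a (r = 0.88), for Hpgd Tppp3 (r = 0.85), for Ptgs1 Mustn1 (r = 0.89) and for Hpgds 9930022D16Rik (r = 0.89). Alox5ap was nearest to Gm5431 (r = 0.95), and Alox5 had no gene above 0.78 (4732465J04Rik). Profiles of a class share its cell type and profiles of a library its depth, so these values only describe the pattern.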

How the data were processed

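The authors made raw UMI counts per gene and cell with Cell Ranger (version 7.2.0 in the matrix headers, 5.0.1 in the submitters' processing notes) on mm10 with intronic reads, and deposited them before their removal of background RNA and doublets. Here cells with more than 500 genes were kept and predicted doublets removed at 0.8% per 1000 cells. Log counts of 2000 variable genes, without the pathway genes, gave 20 principal components and a 20-neighbor graph for Leiden clustering (leidenalg 0.10.2, scanpy 1.11.5, resolution 1, seed 1), and myeloid clusters were clustered again. Clusters were named from 18 marker lists. UMIs were summed per class and library to CPM with exact Poisson intervals, ratios used a pseudocount of 1 CPM with exact binomial intervals of the UMIs, and shares of cells had Clopper-Pearson intervals. Classes needed 50 cells. A count of 0 was given the limit that 3 counts allow. All members were named, and other pathway genes from 20 CPM, except that Ptgir, Pla2g2e and Ptgds were named below it because they were called. For each member the most similar gene was named with its r, and for Ptgs2, Tbxas1 and Ptges the 3 most similar. The members and lists were chosen with earlier results of these data known, the motifs after the promoters were read. The ratio step was tested on simulated data. Coordinates came from GENCODE M21, which held 99.85% of the genes. Alternatives changed the cell filters, clustering, gate, weights, scaling, pseudocount and low-count filter. Leaving out clusters drawn to over 70% from 1 library, and ratios within clusters, were added after seeing the data.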

Additional observations from a re-analysis of the deposited data

Results flagged for a closer look

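Alox5ap in macrophage-like cells differed in direction between the genotypes after anti-PD1, with a fold of 0.809 in WT and 1.27 in A159V. Within clusters the folds in WT and A159V were 1.18 and 1.12 in M00, 0.689 and 0.872 in M04, and 0.809 and 1.27 in M01, so the direction differed in M01 alone. Neither class fold reached 2-fold, and with 1 library per group the difference between them was not tested.

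Classes that no comparison used also carried signal, above the limit that a count of 0 allows. The 34 tumor-like cells of WT anti-PD1 had 387 CPM of Ptgs2 and 123 CPM of Ptges, above the tumor-like cells of the other libraries. Their median was 57174.5 UMIs, above the 29657 to 42323 UMIs of the other tumor-like cells. Tyrobp was at 0 in them, and the macrophage list summed to 49.8 CPM against 22.6 to 29.1 CPM in the others. The neutrophil list summed to 79.5 CPM (3 of its 8 genes at 0) against 7.73 to 18.6 CPM in the others. The part of other cells in these values was not tested. Endothelial-like cells of WT anti-PD1 had 46.5 CPM of Ptgs1, and 40 pericyte-like cells of the same library had 51.4 CPM of Hpgd.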

How the results depend on the processing

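No paired analysis was possible because each group is 1 library. The count of pairs past 2-fold for A159V IgG over WT IgG (1) was 2 with cells over 10% mitochondrial UMIs left out, with predicted doublets kept and at resolution 2, 4 with a gate on marker UMIs, 6 with no filter on low counts and 0 without clusters drawn mainly from 1 library. For WT anti-PD1 over WT IgG (7) it was 12 with doublets kept, 4 with a pseudocount of 5 CPM and 2 without those clusters. For A159V anti-PD1 over A159V IgG (4) it was 10 with no filter and 2 without those clusters. Leaving these clusters out removes both fibroblast-like clusters, and the tested pairs went from 31, 30 and 33 to 24, 14 and 25. With no filter, 48 and 49 pairs were tested in the A159V comparisons. With the gate the log2 ratio of Alox5ap in fibroblast-like cells (2.12) turned to -1.41, and that of Ptgs2 in fibroblast-like cells after anti-PD1 in A159V (-1.56) turned to 0.63 within clusters, which here is A10 alone. The causes were not tested. Median-of-ratios scaling kept all 12 called ratios, and the mitochondrial limit did so too. The gate kept 6 of 12, equal weights per cell 9 and the larger pseudocount 8. Hpgds in macrophage-like cells of A159V missed 2-fold at resolutions 2 (-0.98) and 0.5 (-0.96). The class with the highest level stayed the same in 81 of 85 comparisons with the alternatives. Of 83 shares, 32 stayed within their interval at 1000 UMIs and 21 without thinning. A minimum of 1000 genes left too few neutrophil-like cells. Depth limits Alox5, Hpgd and Ptger2 in neutrophil-like cells, where single UMIs decide.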
